A study of Rattus norvegicus with 2 samples.

Results

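The genes described here build the traffic between the endoplasmic reticulum, the Golgi and the endosomes: channel and coat subunits named Sec, the COPI coat (Copa to Copz), the p24 cargo receptors (Tmed), the TRAPP tether (Trappc), and the small GTPases of the Rab, Arf and Arl families with proteins named after them. Members were the entries whose gene identifier maps to a rat protein-coding symbol of these families and whose mean over the libraries was at least 1 FPKM, a level corrected for transcript length and for the size of the library. This gave 63 genes of 4366 measured, where measured means the same mean of at least 1 FPKM. The rule used levels and names, not the difference between the libraries, but it was chosen with earlier results of these data known. Expression came from H9c2, a cardiomyoblast line of embryonic rat heart, grown in DMEM with serum. The control was then held in serum-free DMEM with 0.9 mM phosphate for 12 h and the high phosphate culture in the same medium with 2.5 mM for 12 h. Only 1 library was made per phosphate level, so none of the differences below has a replicate check, no test was possible and no p-value is given.

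Proteins for secretion enter the endoplasmic reticulum through the Sec61 channel, leave it in vesicles coated by COPII, and pass the Golgi, from which COPI vesicles carry receptors and escaped residents back. The p24 proteins link cargo in the lumen to these coats, Arf GTPases recruit COPI, and TRAPP activates Rab1, which ties arriving vesicles to the Golgi. Rab GTPases mark each membrane of the route, and several Arl proteins act at the Golgi, the lysosome or the cilium. Fibroblasts and muscle precursors use this route to export matrix proteins such as collagen.

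Among the role groups with at least 5 members, COPI was the 1 whose genes all lay on 1 side: its 5 measured subunits were all listed higher in high phosphate, with log2 ratios from 0.19 to 0.52. Rab GTPases of the ER and Golgi were higher in 6 of 7 cases, with Rab6b nearly 2-fold apart, while 5 of the 7 endosomal Rab genes were lower by small amounts. Of all measured genes 50.5% were above 0 and 49.4% below. The p24 receptors and TRAPP subunits lay on both sides. No member was at least 2-fold higher and none at least 2-fold lower, against 1.76% and 0.87% of all measured genes. At the threshold of 1.5-fold, 4 of 63 members were higher (6.35%, against 7.21% of measured genes) and 1 was lower (1.59%, against 3.37%). The lower one, Sec14l2, reached the mean of 1 FPKM only through the control library, so its count supports nothing. These shares are near or under the background. All folds and log2 ratios are log2((high phosphate FPKM + 1)/(control FPKM + 1)), a scale on which differences between low values come out smaller.

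**Figure D1:**
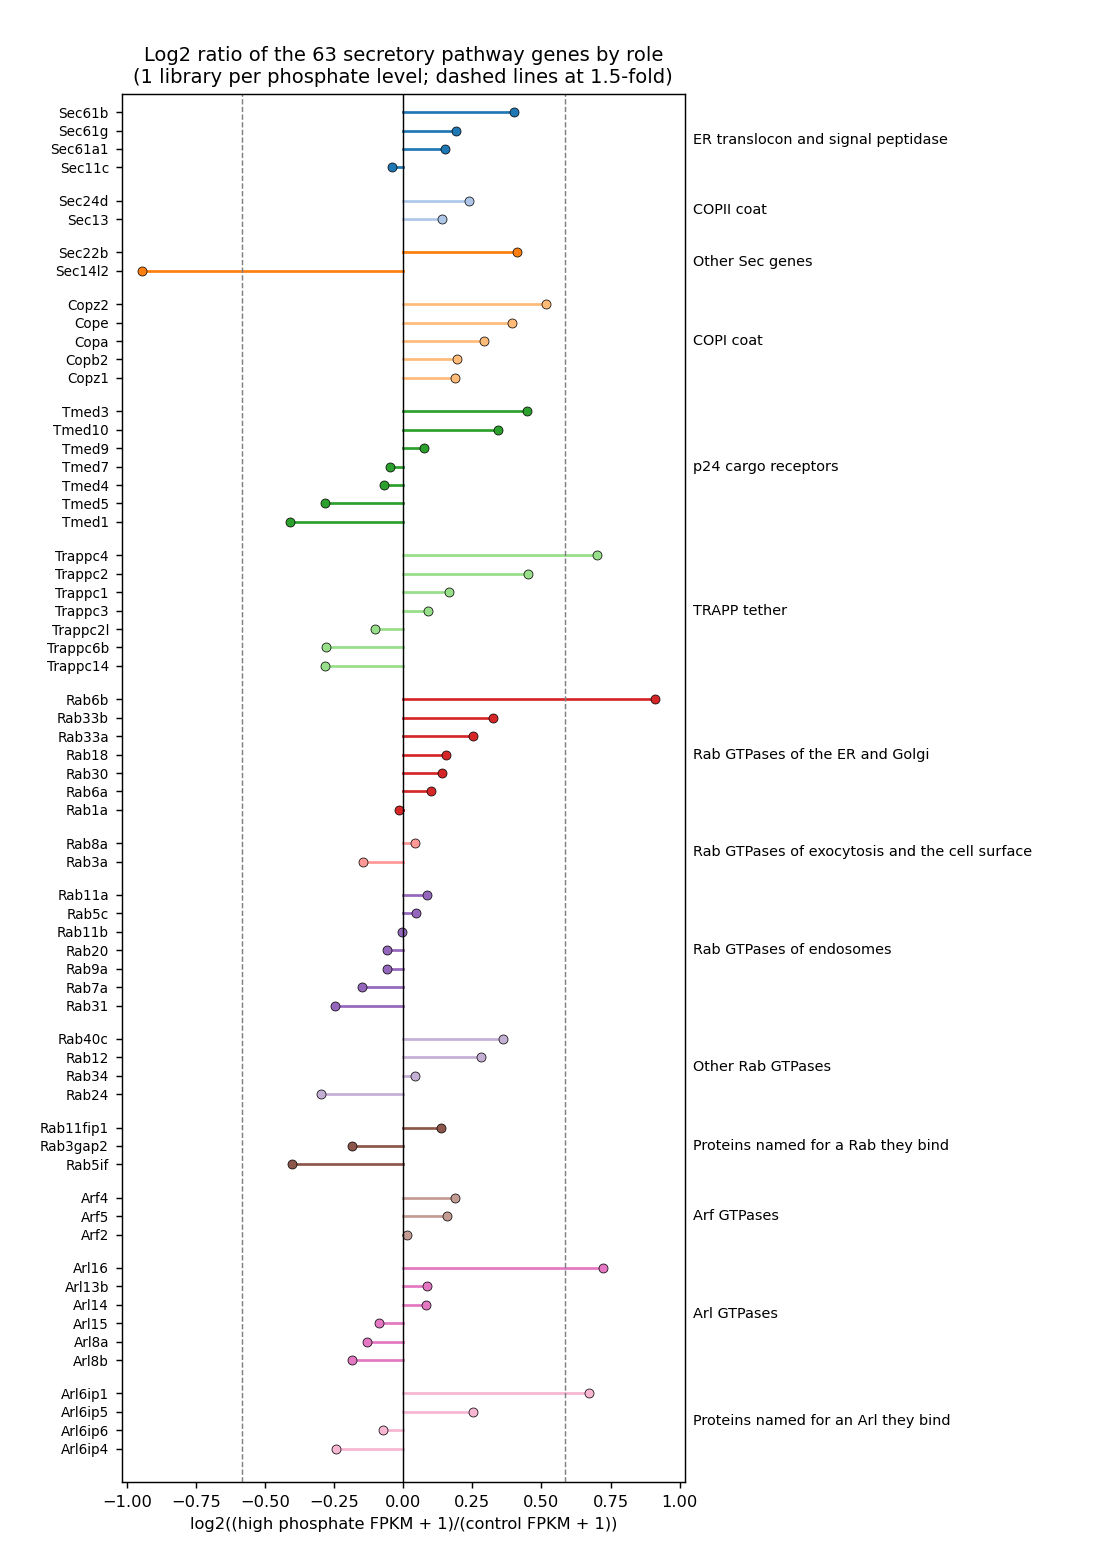
Each point is 1 member, with the log2 ratio of high phosphate over control (FPKM + 1) on the x axis and genes grouped by role on the y axis; dashed lines stand at 1.5-fold and there is 1 library per phosphate level. All 5 COPI points lie to the right of 0, and 5 points of the 63 pass a dashed line (Rab6b, Arl16, Trappc4 and Arl6ip1 to the right, Sec14l2 to the left).

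Over all members 39 log2 ratios were above 0 and 24 below, which is 61.9% above against 50.5% of measured genes. The median was 0.09 beside 0.00 for all measured genes, and the quartiles of the members were -0.08 and 0.25. The split depended on the scaling of the libraries. At the same median ratio 39 members were above 0, beside 50% of measured genes, and at the same upper quartile 38, beside 47.6%. At the same sum without the 100 most abundant entries it was 34, beside 1778 of 4366 measured genes. Among the scalings run, the split reversed only at the full same sum. Listed FPKM summed to 1.13 times as much in the high phosphate library, and after both were set to the same sum 24 members were above 0 and 39 below, against 32.2% of measured genes above 0, with a median of -0.07 for the members and -0.15 for all measured genes. Against the median of all genes the members thus stood slightly above both as deposited and at the same sum. Rescaling multiplies 1 library by 1 factor, so it could hardly change this order. Members were abundant genes, with a median mean level of 48.6 FPKM beside 14 FPKM for all measured genes. From a mean level of 10 FPKM upwards, 28 of 44 members were above 0 (63.6%), against 51.3% of 2550 genes.

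**Figure D2:**
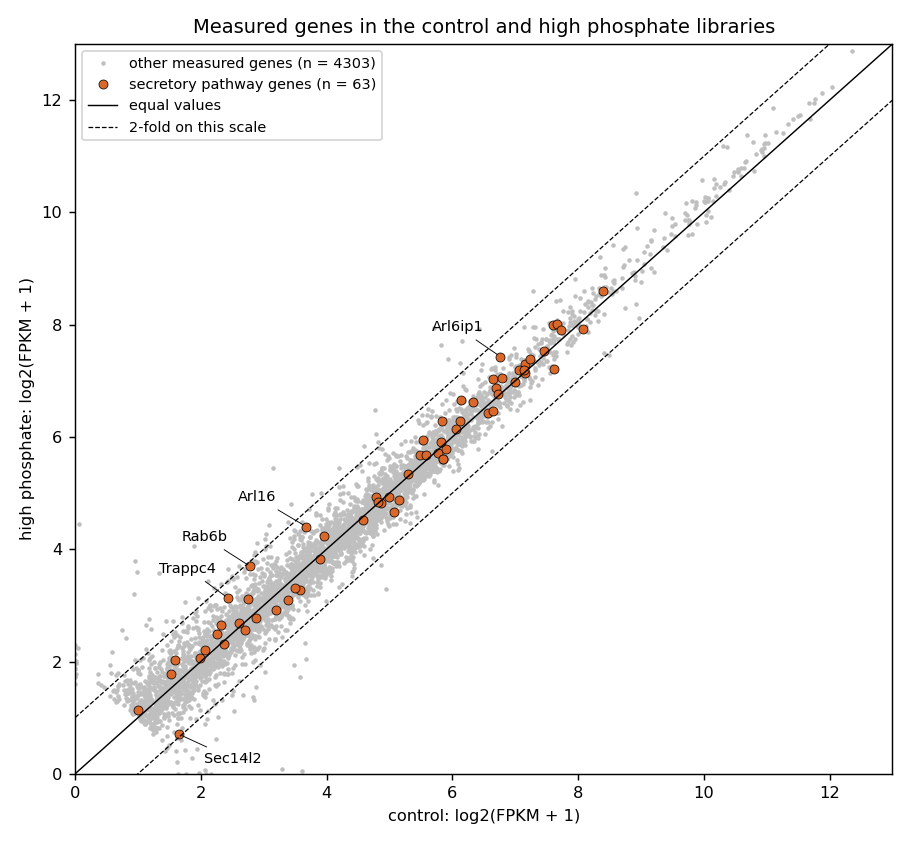
Each point is a gene, with log2(FPKM + 1) in the control on the x axis and in high phosphate on the y axis; orange points are the 63 members and grey points the other measured genes. All orange points lie between the dashed lines of a 2-fold difference, and the 5 labelled members are those at least 1.5-fold apart.

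The cell line was checked on markers of its own and other cell types. Of 6 myoblast markers 4 were listed, with desmin (Des) at 128.5 FPKM in control and 153.3 FPKM in high phosphate cells, and the myogenic factor Myod1 at 6.11 and 1.59 FPKM. Myog and Chrna1 were under 1 FPKM in both. The 3 listed cardiomyocyte markers, Nppa, Myh7 and Ryr2, were also under 1 FPKM in both, Myh7 and Ryr2 at 0; the other 5 of the 8 written were not analysed here, and an entry at 0 does not show that a gene was silent. For each of endothelium, leukocytes and neurons, 3 of 4 written markers were listed. They summed to between 0.04 and 1.47 FPKM per cell type in either library. Ptprc and Snap25 were at 0, while the leukocyte marker Cd68 had 1.06 FPKM in control and 1.38 FPKM in high phosphate cells. Because RNA was taken from whole cultures, fewer cells of a kind and less RNA per cell cannot be told apart. The part of the Myod1 difference in any result below was not tested.

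At the entry to the endoplasmic reticulum, the channel subunits were among the most abundant members. Sec61g, the small gamma subunit of the channel, had 338 and 385 FPKM in control and high phosphate, in this order here and below, the highest mean of all members. Sec61b, the beta subunit, had 193 and 255 FPKM (log2 ratio 0.40), and Sec61a1, which forms the pore, had 141 and 157 FPKM (log2 ratio 0.15). All 3 channel subunits were thus listed higher in high phosphate as deposited, and the pore subunit and Sec61g (log2 ratio 0.19) differed less than the beta subunit. After rescaling to the same sum Sec61a1 was at -0.02, Sec61g at 0.02 and Sec61b at 0.23. Sec11c, a catalytic subunit of the signal peptidase that cuts the entry signal off, had 28.1 and 27.3 FPKM. The gene table names 13 further Sec61g-like genes or pseudogenes, and the handling of reads they share is not stated in the labels.

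Few COPII genes could be compared. Sec13, which builds the outer cage of the coat and also belongs to the nuclear pore, was listed at 132 and 145 FPKM. Sec24d, which selects cargo in the inner coat, had 3.77 and 4.62 FPKM. Both were slightly higher in high phosphate, with log2 ratios of 0.14 and 0.24, but after rescaling to the same sum 1 of the 2 was above 0. Sec22b, a SNARE protein that fuses vesicles between the ER and the Golgi, had 45.4 and 60.8 FPKM, a log2 ratio of 0.41. Sec14l2 was the lowest of all members, with 2.14 and 0.63 FPKM (log2 ratio -0.95). Sec14l2 binds lipids such as tocopherol and is no part of a coat; its name brought it in, at a mean level of 1.39 FPKM that the high phosphate library alone would not reach.

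The COPI subunits assemble as a single block on Golgi membranes. Copz2, a zeta subunit, had 69.6 and 100.05 FPKM, the largest log2 ratio of the coat at 0.52. Its paralog Copz1 had 102 and 116 FPKM (log2 ratio 0.19), so that Copz2 made up 40.5% of the pair in the control and 46.2% in high phosphate. Cope, the epsilon subunit, had 98.8 and 130 FPKM (log2 ratio 0.39). The large alpha subunit Copa had 79.7 and 97.7 FPKM (log2 ratio 0.29), and Copb2, the beta-prime subunit that forms the outer layer with Copa, had 44.0 and 50.5 FPKM (log2 ratio 0.19). Differences were thus small, and none reached 1.5-fold. The median of the 5 was 0.29, and it was 0.12 after rescaling to the same sum, where all 5 stayed above 0 (0.02 to 0.35). The other subunit in the files, Copb1, was listed at 0.17 and 0 FPKM. Copb1 encodes the beta subunit that every COPI coat needs, and in files without counts an entry near 0 can be a failed estimate.

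**Figure D3:**
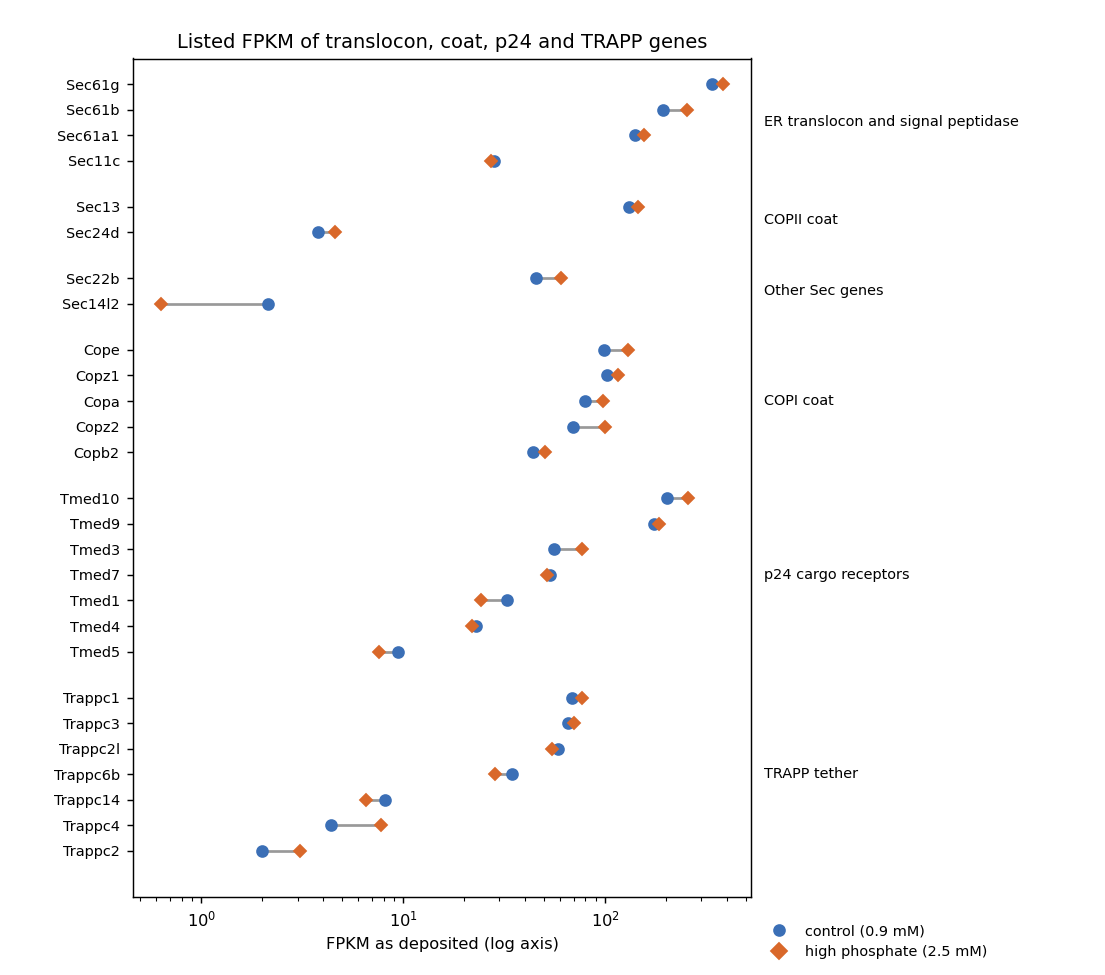
Listed FPKM on a log axis for the translocon, coat, p24 and TRAPP members, with blue circles for the control library and orange diamonds for the high phosphate library, joined by a line for each gene. The diamond lies to the right of the circle for all 5 COPI genes, and the widest gap belongs to Sec14l2 (2.14 and 0.63 FPKM).

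Promoters of the COPI genes are shown because this group was above 0 in full under all 5 scalings run, and they were chosen after these values and the letters in them were seen. They are RefSeq windows of 300 bases in the build GRCr8, 250 before and 50 after the start of the gene, printed in the direction of the gene. Such windows matched 55 of the 63 members (56 windows, since Rab30 has 2 starts). Capitals mark the letters searched on both strands: TGACGTGG, a site described for the ER stress factors XBP1 and ATF6; TGACGTCA, the cAMP response element; and ACGTG, the core of the hypoxia response element, which the first of these contains.
Copa, chr13:87078618-87078917, plus strand: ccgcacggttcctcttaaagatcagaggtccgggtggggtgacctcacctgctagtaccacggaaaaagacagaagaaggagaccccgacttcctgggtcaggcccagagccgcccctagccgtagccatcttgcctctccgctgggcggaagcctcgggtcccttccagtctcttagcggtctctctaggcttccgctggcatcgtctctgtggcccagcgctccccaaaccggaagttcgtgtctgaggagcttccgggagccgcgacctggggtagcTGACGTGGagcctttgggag
Copb2, chr8:108040437-108040736, plus strand: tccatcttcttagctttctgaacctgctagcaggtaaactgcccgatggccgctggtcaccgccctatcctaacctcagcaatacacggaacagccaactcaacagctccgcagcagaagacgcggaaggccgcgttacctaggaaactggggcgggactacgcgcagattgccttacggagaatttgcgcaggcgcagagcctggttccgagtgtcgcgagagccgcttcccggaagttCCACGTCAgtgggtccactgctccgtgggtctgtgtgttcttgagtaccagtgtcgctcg
Cope, chr16:19158988-19159287, minus strand: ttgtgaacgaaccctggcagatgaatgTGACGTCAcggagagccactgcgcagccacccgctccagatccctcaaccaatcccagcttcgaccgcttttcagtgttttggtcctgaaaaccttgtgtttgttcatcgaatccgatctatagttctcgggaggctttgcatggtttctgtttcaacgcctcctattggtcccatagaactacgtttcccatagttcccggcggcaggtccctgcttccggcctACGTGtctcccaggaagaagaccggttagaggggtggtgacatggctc
Copz1, chr7:136288007-136288306, plus strand: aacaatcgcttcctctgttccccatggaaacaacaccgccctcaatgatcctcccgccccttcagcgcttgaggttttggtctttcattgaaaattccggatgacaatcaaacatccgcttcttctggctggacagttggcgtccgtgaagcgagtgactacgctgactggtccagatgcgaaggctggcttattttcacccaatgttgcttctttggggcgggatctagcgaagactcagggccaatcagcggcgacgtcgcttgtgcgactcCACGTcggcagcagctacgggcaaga
Copz2, chr10:82328638-82328937, plus strand: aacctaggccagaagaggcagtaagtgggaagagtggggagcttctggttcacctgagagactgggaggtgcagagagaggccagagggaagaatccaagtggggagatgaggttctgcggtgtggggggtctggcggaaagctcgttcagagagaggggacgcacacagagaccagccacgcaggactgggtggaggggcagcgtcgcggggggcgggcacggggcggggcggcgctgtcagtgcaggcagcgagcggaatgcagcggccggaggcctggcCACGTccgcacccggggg

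ACGTG was in 24 of 56 member windows (42.9%), all 5 COPI windows among them, beside 28.2% of the 3770 windows of measured genes and 19.3% of all 33469 windows in the table. The longer TGACGTGG was found in 3 member windows, those of Copa, Copb2 and Arf4, or 5.36% against 0.955% of windows of measured genes and 0.595% of all. It began 30 bases after the start in Copa and 10 bases before the start in Copb2, there on the opposite strand. TGACGTCA was found in 1 member window, that of Cope, 223 bases before the start (1.79%, against 3.5% of windows of measured genes and 1.83% of all). The ER stress response element, CCAAT and CCACG with 9 bases between them, was in no member window and in 0.186% of windows of measured genes. Such letters are a description of the sequence and not a shown binding site. Member windows had a median GC content of 62.3%, beside 60.7% in windows of measured genes and 51.7% in all, and a median of 21 CpG pairs beside 21 and 7, and the part of base composition in these shares was not tested.

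The p24 receptors, which cycle between the ER and the Golgi as mixed complexes, were divided. Tmed10, the delta family member, was listed at 202 and 256 FPKM (log2 ratio 0.34). Tmed3, of the gamma family, had 55.9 and 76.5 FPKM, the largest ratio of the group at 0.45. Tmed9, of the alpha family, had 176 and 185 FPKM (log2 ratio 0.07). These 3 were higher in high phosphate, while the other 4 were lower. Tmed1 had 32.5 and 24.2 FPKM (log2 ratio -0.41), and Tmed5 9.48 and 7.6 FPKM (log2 ratio -0.29), both of the gamma family like Tmed3. Tmed7, also a gamma member, was at 53.5 and 51.7 FPKM, and the alpha member Tmed4 at 23 and 21.9 FPKM. Within the gamma family the levels thus went both ways. The median over 7 genes was -0.05, close to the 0.00 of all measured genes.

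The windows of Tmed3 and Sec22b follow as those of the p24 and the Sec gene with the highest log2 ratios, and that of Arf4 as the third with TGACGTGG, which began 9 bases before its start.
Tmed3, chr8:99129228-99129527, minus strand: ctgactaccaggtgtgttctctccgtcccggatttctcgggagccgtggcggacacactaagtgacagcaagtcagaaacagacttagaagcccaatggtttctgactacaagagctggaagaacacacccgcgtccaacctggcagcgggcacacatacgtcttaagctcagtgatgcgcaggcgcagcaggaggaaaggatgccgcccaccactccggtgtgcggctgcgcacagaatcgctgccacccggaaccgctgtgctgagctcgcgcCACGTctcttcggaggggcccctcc
Sec22b, chr2:188188533-188188832, plus strand: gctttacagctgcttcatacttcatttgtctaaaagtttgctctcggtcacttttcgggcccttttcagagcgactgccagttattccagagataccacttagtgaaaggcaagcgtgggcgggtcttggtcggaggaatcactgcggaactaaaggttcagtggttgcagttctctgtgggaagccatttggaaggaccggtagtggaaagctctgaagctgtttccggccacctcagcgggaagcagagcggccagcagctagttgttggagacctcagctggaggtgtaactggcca
Arf4, chr16:1903186-1903485, plus strand: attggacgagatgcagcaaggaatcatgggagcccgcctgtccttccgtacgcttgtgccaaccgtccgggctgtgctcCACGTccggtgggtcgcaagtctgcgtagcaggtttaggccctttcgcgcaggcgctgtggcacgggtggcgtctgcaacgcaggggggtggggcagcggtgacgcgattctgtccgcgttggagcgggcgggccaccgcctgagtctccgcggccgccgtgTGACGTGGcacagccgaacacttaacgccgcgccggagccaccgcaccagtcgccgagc
Tmed3 held ACGTG once, and Sec22b held none of the letters searched. For Arf4, ACGTG also stood 171 bases before the start, on the opposite strand.

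TRAPP is a tether of several small subunits that exchanges the nucleotide on Rab1. Trappc4, a core subunit, was at 4.39 and 7.76 FPKM, and its log2 ratio of 0.70 passed 1.5-fold. Trappc2 had 2.0 and 3.1 FPKM (log2 ratio 0.45), and its gene span overlaps those of Rab9a and Ofd1 in the gene table. The core subunits of higher level differed little, with Trappc1 at 68.4 and 76.8 FPKM and Trappc3 at 65.8 and 70.0 FPKM. In the other direction, Trappc6b had 34.7 and 28.5 FPKM (log2 ratio -0.28), Trappc14 8.15 and 6.51 FPKM (-0.28) and Trappc2l 58.5 and 54.4 FPKM (-0.10). Higher and lower subunits were thus 4 and 3, with a median of 0.09 that turned to -0.08 after rescaling to the same sum. The 2 largest TRAPP ratios belonged to the subunits with the lowest levels.

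Rab GTPases of the ER and Golgi were led by Rab6b. Rab6b, a Golgi Rab best known from neurons, was listed at 5.89 and 11.95 FPKM, more than 2-fold apart in listed FPKM and just under 2-fold with the added 1 (log2 ratio 0.91). Its ubiquitous paralog Rab6a had 55.2 and 59.2 FPKM (log2 ratio 0.10), so that Rab6b made up 9.6% of the pair in the control and 16.8% in high phosphate. Markers of neurons were near 0 in both libraries, with Stmn2 at 0.06 and 0.02 FPKM and Snap25 at 0, though such entries do not show that a gene was silent. The source of the Rab6b difference was not tested. Rab33b, which works at the Golgi and in autophagy, had 4.01 and 5.28 FPKM, and Rab33a 1.88 and 2.43 FPKM. Rab18, found on the ER and lipid droplets, had 26.6 and 29.7 FPKM, and the Golgi protein Rab30 3.17 and 3.6 FPKM. The 1 gene of the group that was lower was the most abundant, Rab1a, the partner of TRAPP, with 142 and 140.8 FPKM (log2 ratio -0.02). The median of the 7 was 0.15, and 0.01 after rescaling to the same sum, where 4 were above 0. From a mean level of 10 FPKM upwards only 3 of the 7 remained, 2 above 0 and 1 below as deposited.

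Rab GTPases of endosomes differed by less than 0.25 log2 units in all 7 cases. Rab7a, which directs late endosomes to lysosomes, was the most abundant at 269 and 243 FPKM (log2 ratio -0.15). Rab31, which sorts receptors between the Golgi and endosomes, was lowest in ratio with 56.9 and 47.8 FPKM (log2 ratio -0.25). Rab9a, of the path from late endosomes to the Golgi, had 30.9 and 29.6 FPKM, and Rab20 4.18 and 3.97 FPKM. The recycling Rab genes Rab11a and Rab11b had 47.1 and 50.1 FPKM and 126 and 126 FPKM, and Rab5c of early endosomes 105 and 108 FPKM. Their median was -0.06, and after rescaling to the same sum all 7 were below 0, with a median of -0.20 beside -0.15 for all measured genes. The genes of the ER and Golgi steps together (translocon, both coats, p24, TRAPP, their Rab genes and Arf), grouped in this way after the values were seen, were above 0 in 26 of 35 cases, beside 50.5% of measured genes, and in 17 of 35 after rescaling, beside 32.2%. The difference between the endosomal and the earlier steps was not tested.

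The remaining Rab genes were level or mixed. For exocytosis, Rab8a was at 38.2 and 39.3 FPKM and Rab3a, the Rab of synaptic vesicles, at 5.5 and 4.87 FPKM. Rab34, a Golgi and cilium Rab, was at 141 and 145 FPKM, and Rab12 at 14.5 and 17.8 FPKM. Rab40c, part of a ubiquitin ligase, had 5.75 and 7.67 FPKM (log2 ratio 0.36), while Rab24 had 10.9 and 8.7 FPKM (log2 ratio -0.30). Of the proteins named for a Rab, Rab5if had 195 and 147 FPKM (log2 ratio -0.40), the largest loss in listed FPKM of any member at -47.7 FPKM. Rab3gap2, a subunit of a Rab3 and Rab18 regulator, had 10.3 and 8.92 FPKM, and the Rab11 effector Rab11fip1 1.01 and 1.21 FPKM.

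**Figure D4:**
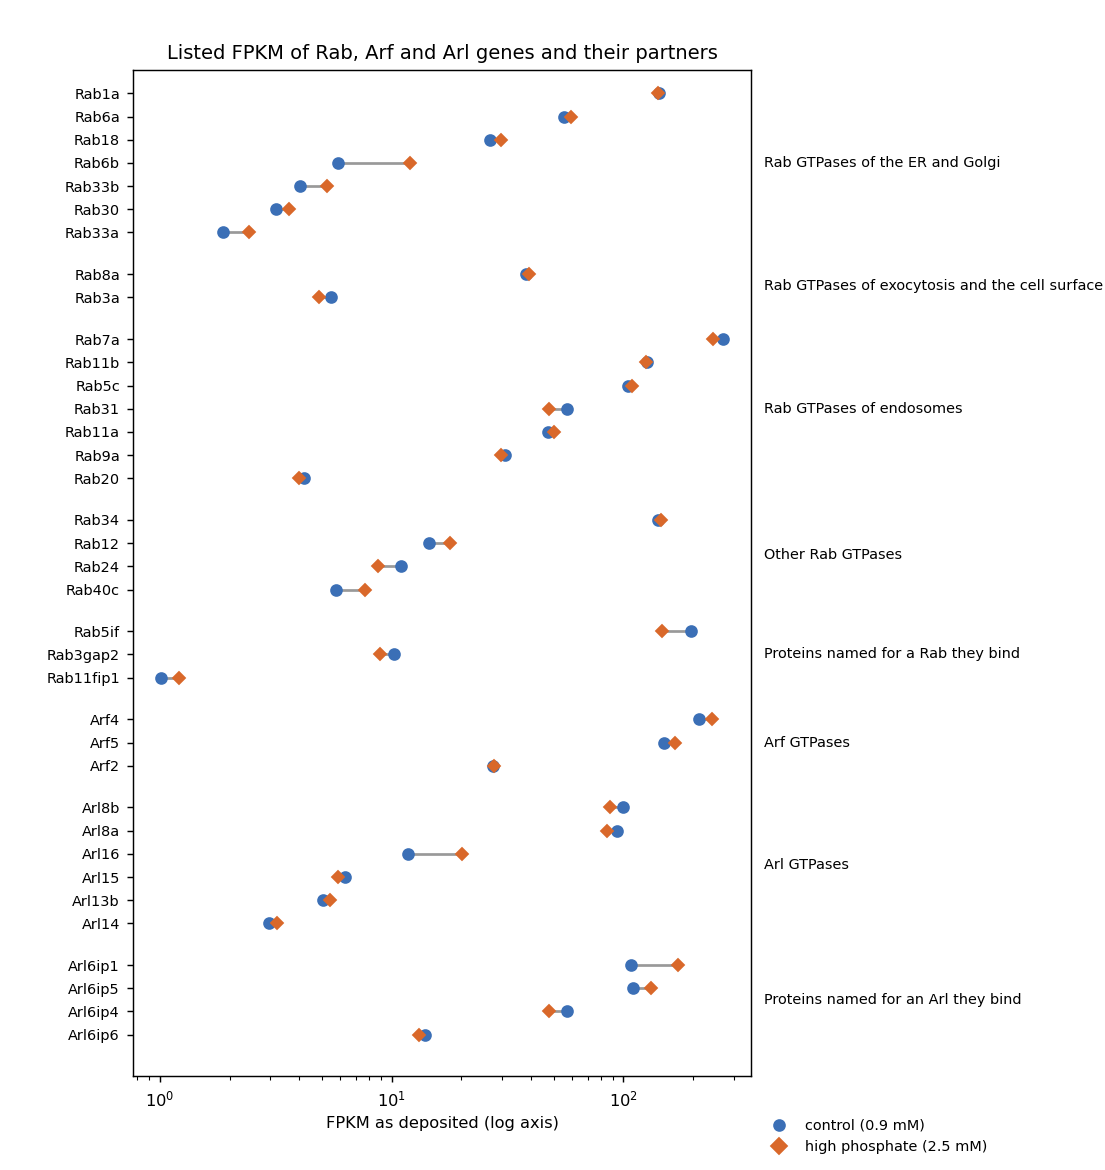
Listed FPKM on a log axis for Rab, Arf and Arl members and the proteins named for them, with blue circles for the control library and orange diamonds for the high phosphate library. Circle and diamond nearly coincide for most genes, and Rab6b (5.89 and 11.95 FPKM), Arl16 and Arl6ip1 show the widest gaps to the right.

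Among Arf GTPases, which recruit coats to Golgi membranes, the class II members Arf4 and Arf5 were highest. Arf4 was listed at 211 and 240.09 FPKM (log2 ratio 0.19), and Arf5 at 149 and 166 FPKM (log2 ratio 0.16). Arf2, a class I member, had 27.3 and 27.5 FPKM. All 3 were above 0 as deposited and 1 of 3 after rescaling to the same sum, so that the direction rests on the scaling.

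Arl genes were level except for Arl16. Arl16, which acts in traffic to the cilium, had 11.8 and 20.1 FPKM, a log2 ratio of 0.72. Arl8a and Arl8b, the paralogs that couple lysosomes to kinesin, had 93.6 and 85.3 FPKM and 99.4 and 87.4 FPKM, with log2 ratios of -0.13 and -0.18. Both were slightly lower in high phosphate, as was the lysosomal Rab7a. Arl13b, a cilium GTPase, had 5.07 and 5.44 FPKM, Arl14 2.96 and 3.19 FPKM, and Arl15 6.31 and 5.88 FPKM. The group was above 0 in 3 of 6 cases, with a median of -0.00. Of the proteins named for an Arl, Arl6ip1, which shapes ER tubules, had 108 and 172 FPKM, a log2 ratio of 0.67 and the largest gain in listed FPKM of any member at 64.3 FPKM. Arl6ip5, an ER protein that limits glutamate transport, had 110 and 131 FPKM, while Arl6ip4 had 56.9 and 47.9 FPKM and Arl6ip6 13.9 and 13.2 FPKM. After rescaling to the same sum, 1 of the 4 members at least 1.5-fold higher, Rab6b, was past that threshold, against 4.47% of measured genes, and Arl16, Trappc4 and Arl6ip1 had log2 ratios of 0.56, 0.55 and 0.50.

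Other genes of the same route came from 7 lists outside the naming rule, chosen with earlier results of these data known. They are thus no separate check on the members. Of 175 genes written, 74 were listed and 67 measured. Of these 67, 47 were above 0 and 20 below, with a median of 0.12, beside 50.5% of measured genes above 0. After rescaling to the same sum 26 of the 67 were above 0, beside 32.2% of measured genes. COPII assembly, ER exit and cargo receptors, with 9 genes measured of 22 written, were above 0 in 8 of 9 cases as deposited, with a median of 0.26. After rescaling to the same sum 7 of 9 were above 0, with a median of 0.09. In this list the KDEL receptor Kdelr2, which returns ER residents in COPI vesicles, had 128 and 170 FPKM (log2 ratio 0.41). Bcap29 had 1.13 and 1.92 FPKM (log2 ratio 0.46). Preb, the exchange factor for Sar1, was lower, with 61.7 and 52.4 FPKM, and Sar1b had 50.9 and 55.9 FPKM. ER and Golgi SNAREs were above 0 in 11 of 12 cases by small amounts, from -0.03 for Scfd2 and 0.06 for Napg to 0.24 for Stx6 and Vamp3, and in 3 of 12 after rescaling.

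Of 12 genes written for the oligosaccharyltransferase, which adds sugar chains to entering proteins, only 4 were measured. Of these 4, 3 were above 0 under both scalings. As deposited they ran from Stt3a (log2 ratio -0.17) and Ostc (0.22) to Dad1 (0.31) and Ost4 (0.44). Signal recognition, signal peptidase and TRAP genes ranged from -0.05 for Srp9 and -0.02 for Srp19 to 0.18 for Ssr2 and 0.23 for Ssr3, with 6 of 8 above 0 and 2 of 8 after rescaling. Golgi matrix and tether genes were above 0 in 6 of 9 cases, and in 3 after rescaling, with Golga5 and Exoc3 lowest (-0.38 and -0.34) and Golgb1 and Gcc2 highest (0.21 and 0.24). Regulators of Arf and Rab were above 0 in 6 of 11 cases, and in 4 after rescaling. They held the 1 gene of the 67 in these lists that was at least 1.5-fold higher, beside 7.21% of measured genes. It was the Arf regulator Arfgap3, with 4.99 and 8.39 FPKM (log2 ratio 0.65). Rabggtb, which attaches the lipid anchor of Rab proteins, came next with 19.9 and 29.3 FPKM. Gdi2 and Rabgap1 were lowest there (-0.11 and -0.06). Clathrin, its adaptors and retromer were above 0 in 7 of 14 cases, and in 4 after rescaling, with Ap1s2 and Vps35 lowest (-0.35 and -0.29) and Snx3 and Cltb highest (0.37 and 0.29).

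**Figure D5:**
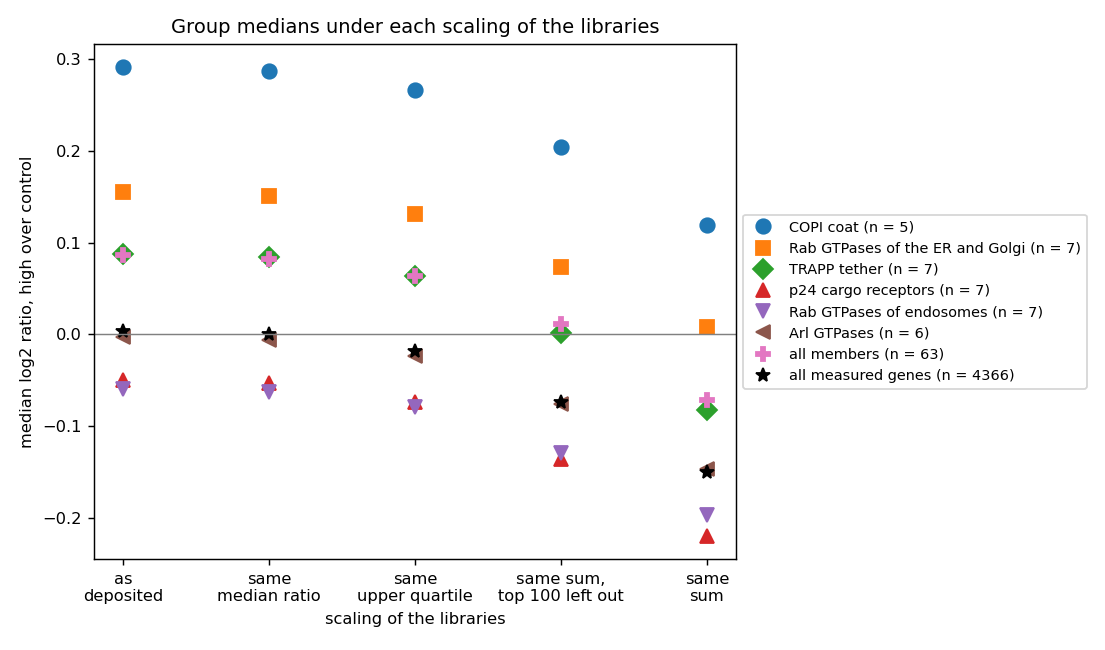
Median log2 ratio of the groups with at least 5 measured members, of all members and of all measured genes on the y axis, under 5 scalings of the libraries on the x axis. The COPI median is the highest point under each scaling, from 0.29 as deposited to 0.12 at the same sum, and the median of all members passes from 0.09 to -0.07.

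The families were covered in part. Of 173 protein-coding genes with these symbols in the gene table, 87 were listed, and the others, such as Arf1, Rab2a, Sec23a, Sec31a, Copg1 and Tmed2, were not analysed here. Of the 87, 24 had a mean under 1 FPKM, and 3 of these, Rab3b, Sec14l5 and Arl5b, were at 0 in both libraries. Just inside the limit lay Rab11fip1, Sec14l2 and Rab33a, with means of 1.11, 1.39 and 2.15 FPKM. Just outside lay Sec14l1, listed at 0.97 FPKM in both, Trappc12 with 0 and 1.65 FPKM, and Rab29 with 1.28 and 0 FPKM. Sec23b, an inner COPII subunit, was listed at 0 and 1.25 FPKM, and Sec63, an ER channel partner, at 0.09 and 0.10 FPKM. Arf3, an abundant GTPase in most cells, was at 0 and 0.01 FPKM. Since such housekeeping genes are listed at or near 0, these entries do not show that a gene was silent. In the gene table, 22 of the 63 members overlap another gene, and 15 have copies or pseudogenes by name, such as 6 for Rab1a; for these the split of reads is uncertain.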

How the data were processed

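RNA sequencing of 2 libraries, 1 per phosphate level, gave the data. The deposited values are FPKM, per the file headers, rounded by the authors to 2 decimals. Per the submitters' processing notes, the build was Rnor_6.0 and the tools included Cuffdiff, Cufflinks 2.2.1, TopHat2 2.1.1 and bcl2fastq; what each did, the annotation and the strand setting are not given there. The files hold no counts, so depth and counting error are unknown.

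Of 8039 entries, 7803 had a usable identifier and 7746 matched a symbol in the NCBI RefSeq table for GRCr8, used for names and overlaps. Log2 ratios used a pseudocount of 1 and a mean of at least 1 FPKM. Medians are given for groups of at least 5 genes. The members, lists and motifs were chosen with earlier results of these data known. Named were members at least 1.5-fold apart, the 3 highest and 3 lowest ratios and the most abundant gene of each role, and the 2 highest and 2 lowest of each outside list; other members are named as family background. COPI and Arf4 promoters were chosen after their values and letters were seen. The calculation was tested on simulated data. Of 10 alternative settings, 2 were added after the data were seen. Python 3.11.15, numpy 2.4.6, pandas 2.3.3 and matplotlib 3.10.9 were used.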

Additional observations from a re-analysis of the deposited data

How the results depend on the processing

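Setting both libraries to the same sum had the widest effect. Members above 0 went from 39 to 24, the median of members from 0.09 to -0.071, and the medians became 0.12 for COPI, -0.22 for p24, -0.083 for TRAPP, 0.0079 for Rab genes of the ER and Golgi, -0.20 for endosomal Rab genes and -0.15 for Arl genes. The median of all measured genes also went to -0.15. Among the lists outside the naming rule the medians turned to -0.0523 for signal recognition, -0.0485 for SNAREs, -0.13 for Golgi tethers and -0.0541 for Arf and Rab regulators. Under this scaling 1 member was at least 1.5-fold higher and 1 at least 2-fold lower (Sec14l2). Each is 1.59% of members, beside 4.47% and 1.28% of measured genes.

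With a pseudocount of 0.1, 1 member was at least 2-fold higher (Rab6b) and 1 at least 2-fold lower (Sec14l2), and with 0.5 again 1 was lower. Among genes of at least 5 FPKM 0 members were 1.5-fold lower, beside 2.17% of all such genes. Of at least 10 FPKM 0 were lower and 2 higher (4.55%), beside 1.49% and 5.33%, with an Arl median of -0.13 over 3 genes. Without a filter on low values 84 matching genes entered. Of these 2 were at least 2-fold higher and 1 lower, and 7 at least 1.5-fold higher and 2 lower. The 2-fold higher ones, Trappc12 and Sec23b, were at 0 FPKM in the control. The 2-fold lower one, Rab29, was at 0 FPKM in high phosphate. Each thus rests on an entry at 0, which can be a failed estimate. The shares of all genes for this setting and for the pseudocounts were not computed, so these counts have no background beside them. Without Sec14l2 and the partner proteins, 0 of 55 were 1.5-fold lower, beside 3.37% of measured genes. Fewer genes enter under the higher limits and more without a filter. The same-sum scaling multiplies all high phosphate values by 0.8869 (log2 -0.17), so all log2 ratios fall together. A smaller pseudocount brings the ratios nearer to those of listed FPKM, 2.03 for Rab6b and 0.29 for Sec14l2. The remaining 98 of 120 group values moved by less than 0.1 log2 units, or by at most 1.5 times for counts.

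No paired analysis was possible because each phosphate level had 1 library. For the same reason there was no replicate to leave out, and the spread between cultures is unknown.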

Other observations

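The share of the listed transcriptome held by the members was 1.39% of summed FPKM in the control and 1.34% in high phosphate. Their own sum was 4265 and 4647 FPKM, a ratio of 1.09, under the 1.13 of all listed entries. Summed by role, the COPI genes had 394 and 495 FPKM (ratio 1.26) and the 4 translocon and signal peptidase genes 699.7 and 824 FPKM (ratio 1.18), while the endosomal Rab genes had 639 and 608 FPKM (ratio 0.95) and the Arl genes 219 and 207 FPKM (ratio 0.95). The p24 sum, led by Tmed10 and Tmed9, had a ratio of 1.13, above 1 although 4 of its 7 genes were lower. Paralog pairs other than Rab6 and Copz kept their proportions: Rab11a made up 27.2% of Rab11a and Rab11b in the control and 28.5% in high phosphate, Arl8a 48.5% and 49.4% of the Arl8 pair, Arf5 41.4% and 40.9% of Arf4 and Arf5, and Rab33b 68.1% and 68.5% of the Rab33 pair. These sums and shares carry no error, since each level had 1 library.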
